A study of Mus musculus with 24 samples.

Results

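Visceral fat of male mice in which regulatory T cells lack Pparg was compared with visceral fat of male mice that carry the Cre driver alone. The Pparg knockout group (genotype label PpargFoxp3cre) and the control group (Foxp3cre) had 4 libraries each, so the comparison held 8 of the 24 libraries of the series. The libraries were taken by the genotype and sex of their labels, and every gene of the count table that passed a filter on low counts (16401 of 27179) was tested. Both groups carry Cre recombinase expressed from Foxp3, the lineage gene of regulatory T cells, so the deletion is directed to a small population while the RNA came from the whole fat pad. The mice were 27 to 33 weeks old and the tissue is labelled as visceral or perigonadal fat. The other 16 libraries are females of both genotypes and mice of both sexes with a deletion of Tbx21, the T-bet gene, in the same cells.

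Regulatory T cells restrain other immune cells. Those that live in the visceral fat of lean male mice increase with age, express the nuclear receptor PPARγ and the IL-33 receptor ST2, and are sustained by IL-33 from stromal cells. PPARγ is also the master regulator of adipocytes, where it drives genes of fatty acid uptake and storage. Loss of Pparg in regulatory T cells is known to reduce their number in visceral fat, and the question here is what the whole tissue of males then expresses.

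Levels are CPM (counts relative to the library total) scaled by TMM, the trimmed mean of M values. In each list of 4 values the libraries stand in the order of replicates 1 to 4, of which 1 and 3 belong to batch 1 and 2 and 4 to batch 2. Log2 fold changes are Pparg knockout minus control with batch as a covariate, with their standard error (SE), and a gene was called at a Benjamini-Hochberg adjusted p under 0.05 in edgeR's quasi-likelihood test over 16401 genes. Library totals were 15473451 to 27192326 counts, and the fit had 5 residual degrees of freedom. The labels number 2 samples within each batch and do not say which libraries stem from the same animal, so each p reflects library-to-library spread, part of which may be technical. Adipoq, the adiponectin gene that marks adipocytes, was abundant in every library (2331 ± 445 CPM in Pparg knockout males and 2262 ± 556 CPM in control males, SD, n = 4 each), as the tissue label says.

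Libraries differed in ways that the groups do not explain. A list of 12 genes of ciliated and ductal epithelium, tissue that lies against the perigonadal fat, summed to 135, 10.99, 28.2 and 406 CPM in Pparg knockout males and to 49.98, 339, 25.9 and 165 CPM in control males. The 4 libraries above 100 CPM were Pparg knockout replicates 1 and 4 and control replicates 2 and 4. The first principal component held 54.5% of the variance. On it Pparg knockout replicate 4 (89.4) and control replicates 2 (85.2) and 4 (59.1) lay apart from the others (−76.8 to −2.65). These are batch 2 libraries above 100 CPM. Pparg knockout replicate 2 stood apart from the other 7 libraries on the second principal component (97.5, against −44.0 to 9.42), which held 21.8% of the variance. Several list medians below are therefore also given without Pparg knockout replicate 2 or without the 4 libraries above 100 CPM. With those 4 left out, knockout replicate 2 was the only batch 2 library, so the batch term absorbed it. Values of that setting compare knockout replicate 3 alone with control replicates 1 and 3, and hold no spread among knockout males.

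Promoters of 2 members each are printed for MHC class II genes and interferon-induced GTPases, 2 of the gene groups below. They show the elements by which such genes are commonly recognised. Class II promoters carry a Y box bound by the factor NF-Y, and promoters of interferon-induced genes carry an interferon-stimulated response element (ISRE). The sequences are from RefSeq (GRCm38.p6), from 250 bases before to 50 bases after an annotated start of the gene, 5′ to 3′ on its strand. Capitals mark the Y box, ATTGG on either strand, in the first pair and the ISRE, GAAANNGAAA on either strand, in the second pair. The 2 ISRE matches in Gbp3 overlap. Gbp3 has 2 promoter entries, and the first that held the ISRE letters is printed. Its window is not set by the outer start of the gene, 142560016.
H2-Aa, chr17:34287774-34288073, minus strand: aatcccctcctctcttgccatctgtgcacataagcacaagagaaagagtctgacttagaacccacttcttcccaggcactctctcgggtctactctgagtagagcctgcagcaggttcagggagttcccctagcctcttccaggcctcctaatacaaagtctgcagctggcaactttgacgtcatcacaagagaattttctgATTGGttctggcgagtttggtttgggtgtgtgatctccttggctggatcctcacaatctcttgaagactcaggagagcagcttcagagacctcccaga
H2-Eb1, chr17:34305617-34305916, plus strand: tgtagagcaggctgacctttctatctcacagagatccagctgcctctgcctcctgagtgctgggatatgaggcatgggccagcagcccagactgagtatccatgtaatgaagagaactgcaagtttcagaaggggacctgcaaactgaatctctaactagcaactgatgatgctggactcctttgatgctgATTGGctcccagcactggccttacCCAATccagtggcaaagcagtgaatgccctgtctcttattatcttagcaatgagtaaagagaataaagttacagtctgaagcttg
Gbp2, chr3:142620413-142620712, plus strand: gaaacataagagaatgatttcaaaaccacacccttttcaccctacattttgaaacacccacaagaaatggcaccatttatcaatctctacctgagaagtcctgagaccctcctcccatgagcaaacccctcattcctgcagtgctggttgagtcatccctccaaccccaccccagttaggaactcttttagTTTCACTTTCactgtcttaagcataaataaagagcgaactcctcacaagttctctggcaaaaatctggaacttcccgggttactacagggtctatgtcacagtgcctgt
Gbp3, chr3:142559794-142560093, plus strand: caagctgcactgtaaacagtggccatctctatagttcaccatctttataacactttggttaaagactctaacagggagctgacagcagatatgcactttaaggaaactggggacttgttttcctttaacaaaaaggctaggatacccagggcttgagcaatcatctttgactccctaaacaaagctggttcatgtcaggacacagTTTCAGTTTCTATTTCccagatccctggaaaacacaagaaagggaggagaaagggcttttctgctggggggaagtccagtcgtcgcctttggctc

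Among 32851 promoters of the same length, 37.4% held the Y box letters and 3.44% the ISRE letters. Of 8 promoters matched to 7 class II list genes, 7 held the Y box letters and 0 the ISRE letters. Of 11 promoters matched to 10 interferon-induced GTPase genes, 9 held the ISRE letters. The gamma-activated site TTCNNNGAA was in 8.3% of all promoters and in 6 of these 11. In the type I interferon response list, 9 of 15 promoters (14 genes) held the ISRE letters. A match describes the sequence and is not evidence of a bound site.

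The level of Pparg itself cannot check the genotype in whole fat, since adipocytes express it. Pparg (chromosome 6, 115360879 to 115490404) had 248.7, 280, 239 and 215 CPM in Pparg knockout males, against 248.6, 197, 242 and 257 CPM in control males. The groups overlapped, with a log2 fold change of 0.06 (SE 0.12, edgeR adjusted p = 0.969). Foxp3 (chromosome X, 7579676 to 7595243) was near the limit of detection, with 0.337, 1.49, 0.482 and 1.11 CPM in Pparg knockout males and 0.645, 0.237, 0.403 and 0.769 CPM in control males. Its log2 fold change of 0.51 had an SE of 0.54 (edgeR adjusted p = 0.955), so neither a loss nor a gain of Foxp3 RNA was detectable at this depth. In whole tissue, fewer cells of a type and less RNA per cell cannot be told apart.

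Across all genes, 1 was called, 0.0061% of those tested, and it was higher in Pparg knockout males. At an unadjusted p under 0.05 there were 1011 genes (6.16%), 633 of them higher (3.86%) and 378 lower (2.3%). With DESeq2's size factors in place of TMM this split was 516 higher and 491 lower. Over all genes tested the median log2 fold change was 0.023, and 55.6% were above 0. The groups did not overlap, after the mean of each batch was removed, for 962 genes (5.87%), of which 620 were higher (3.78%) and 342 lower (2.09%). DESeq2 called 99 genes, 57 higher and 42 lower, and edgeR called 0 when any single library was left out. Without Pparg knockout replicate 2 the number of genes at an unadjusted p under 0.05 was 2033, 981 higher and 1052 lower.

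**Figure D1:**
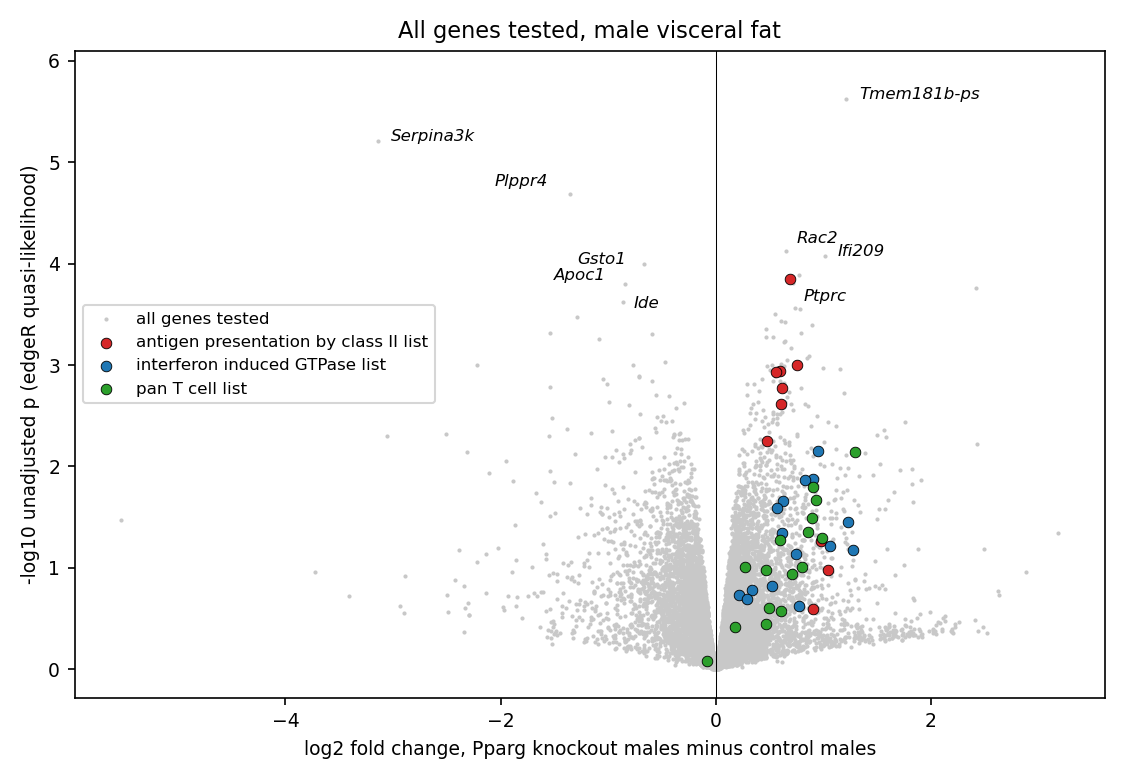
Log2 fold change of each tested gene (Pparg knockout males minus control males) against −log10 of its unadjusted p in edgeR. Red, blue and green points are members of the class II, interferon-induced GTPase and pan T cell lists, and nearly all of them lie right of 0; Tmem181b-ps, at the top, is the called gene.

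The called gene was Tmem181b-ps (chromosome 17, 6439002 to 6450994), a transcribed pseudogene, named after its values were seen. It had 31.9, 51.1, 30.4 and 52.8 CPM in Pparg knockout males, against 14.5, 21.7, 15.6 and 18.3 CPM in control males. Every knockout library was above every control library (log2 fold change 1.21, SE 0.10, edgeR adjusted p = 0.0387). Without any 1 library its log2 fold change was 1.13 to 1.27 and its adjusted p 0.0688 to 0.312. Its span overlaps the end of Dynlt1b (chromosome 17, 6429530 to 6440500), a dynein light chain gene chosen after its values were seen, which had 12.2, 13.9, 13.1 and 11.6 CPM in Pparg knockout males and 8.58, 5.92, 8.73 and 5.30 CPM in control males. These are members of a region of near-identical copies and strand is not stated, so how reads were shared between copies is uncertain. Tmem181b-ps had a log2 fold change of 0.98 (SE 0.17) in females of the same genotype and 0.69 (SE 0.43) in Tbet knockout males, which share the male controls.

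The gene next to the threshold was Serpina3k (chromosome 12, 104338486 to 104345739), which encodes a serine protease inhibitor and was chosen after its values were seen. It had 2.55, 0.207, 1.37 and 0.116 CPM in Pparg knockout males, against 18.3, 1.30, 21.9 and 1.05 CPM in control males. Within each batch the knockout libraries were lower, but knockout replicates 1 and 3 were above control replicates 2 and 4 (log2 fold change −3.14, SE 0.29, edgeR adjusted p = 0.0509). DESeq2, voom and edgeR with another scaling or with no filter called it, with adjusted p from 8.79e-15 to 0.0456. In females its log2 fold change was −0.15 (SE 0.82).

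Ide (chromosome 19, 37268743 to 37334544), which encodes insulin-degrading enzyme, was lower in every Pparg knockout male than in any control male. It had 52.9, 90.4, 47.2 and 75.4 CPM in Pparg knockout males, against 111, 128, 113 and 118 CPM in control males (log2 fold change −0.86, SE 0.13, edgeR adjusted p = 0.299). Its value was −0.90 (SE 0.14) in females and −0.88 (SE 0.10) in Tbet knockout males, where the controls are shared. DESeq2 called it (adjusted p = 5.76e-06), and so did voom (adjusted p = 0.0479).

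By the naming rule, the 10 genes with the largest negative values among 60 genes (unadjusted p under 0.01, mean log2 CPM of at least 1, groups without overlap after removing batch means), with clones, predicted genes and pseudogenes left out, were spread over several functions. Cck, the cholecystokinin gene, had 0.0749, 3.93, 0.334 and 1.69 CPM in Pparg knockout males and 2.72, 11.02, 0.448 and 38.9 CPM in control males (log2 fold change −3.05, SE 0.75). Lipf, a gene for gastric lipase, had 4.61, 6.16, 3.45 and 7.39 CPM in Pparg knockout males and 20.4, 15.3, 10.2 and 14.9 CPM in control males (−1.54, SE 0.27). Both are secreted products of the digestive tract, and Cck varied with batch more than with genotype. Plppr4, a membrane protein of the lipid phosphate phosphatase family, had 8.24, 16.4, 6.49 and 16.6 CPM in Pparg knockout males and 24.4, 41.4, 17.1 and 35.4 CPM in control males (−1.35, SE 0.15, edgeR adjusted p = 0.112). Tfr2, transferrin receptor 2, averaged 20.3 ± 8.67 CPM in Pparg knockout males and 51.6 ± 29.0 CPM in control males (−1.29, SE 0.21). Slc5a7, the choline transporter of nerve terminals, averaged 59.7 ± 30.04 CPM in Pparg knockout males and 113 ± 33.0 CPM in control males (−1.01, SE 0.21). The remaining members were Fgfbp3, a binding protein of fibroblast growth factors (−1.08), Gpr135, an orphan receptor (−1.05), Lox, the collagen cross-linking enzyme lysyl oxidase (−0.99), Optc, the matrix protein opticin (−0.96), and Anxa8, an annexin (−0.92). None of the 10 was called in edgeR, with adjusted p from 0.112 to 0.652.

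The 10 genes with the largest positive values were taken in the same way from 143 that met these conditions. Gbp2b, a guanylate-binding protein induced by interferon, had 8.91, 4.46, 11.6 and 2.79 CPM in Pparg knockout males and 1.29, 1.48, 2.06 and 2.39 CPM in control males (log2 fold change 1.76, SE 0.43). Slfn1, a schlafen gene of lymphocytes, had 4.72, 4.71, 2.89 and 4.13 CPM in Pparg knockout males and 0.830, 0.889, 1.30 and 2.67 CPM in control males (1.56, SE 0.39). For both genes the lowest knockout library was above the highest control library. Cd2, an adhesion receptor of T cells, had 5.54, 10.1, 12.02 and 7.33 CPM in Pparg knockout males and 2.54, 2.72, 3.13 and 6.19 CPM in control males (1.29, SE 0.36). For Cd2, control replicate 4 was above knockout replicate 1. Ifi209, an interferon-induced member of the HIN-200 family, had 9.14, 14.3, 9.01 and 18.7 CPM in Pparg knockout males and 4.15, 7.40, 4.79 and 8.83 CPM in control males (1.02, SE 0.14, edgeR adjusted p = 0.236). Others among them were Timd4, a phosphatidylserine receptor of resident macrophages (1.19), Plac8 (1.16), the schlafen gene Slfn4 of myeloid cells (1.12), the paired immunoglobulin-like receptor gene Pira2 (1.12), and Traf3ip3, an adaptor of lymphocytes (1.05). None of the 10 was called in edgeR (adjusted p from 0.236 to 0.655), and Pira2, Gbp2b and the Slfn genes belong to families of similar sequence.

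Another 5 genes of blood cells, chosen after their values were seen, had higher values in Pparg knockout males. Ptprc, the common leukocyte antigen CD45, had 53.4, 139, 53.9 and 121 CPM in Pparg knockout males and 34.9, 68.1, 29.95 and 90.0 CPM in control males (log2 fold change 0.72, SE 0.11). Within each batch both knockout libraries were above both control libraries. Rac2, a GTPase of blood cells, had 45.3, 41.0, 48.6 and 37.3 CPM in Pparg knockout males and 32.4, 21.4, 31.1 and 25.4 CPM in control males (0.65, SE 0.09). Myo1g, a myosin of blood cells, averaged 38.2 ± 5.77 CPM in Pparg knockout males and 23.5 ± 1.84 CPM in control males (0.70, SE 0.10). Cybb, the catalytic subunit of the phagocyte oxidase, averaged 90.5 ± 25.5 CPM in Pparg knockout males and 54.1 ± 19.2 CPM in control males (0.78, SE 0.13). Il10ra, a chain of the IL-10 receptor, averaged 30.05 ± 4.72 CPM in Pparg knockout males and 19.6 ± 2.36 CPM in control males (0.61, SE 0.10). Their edgeR adjusted p was 0.236 to 0.321, and DESeq2 called each of them.

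**Figure D2:**
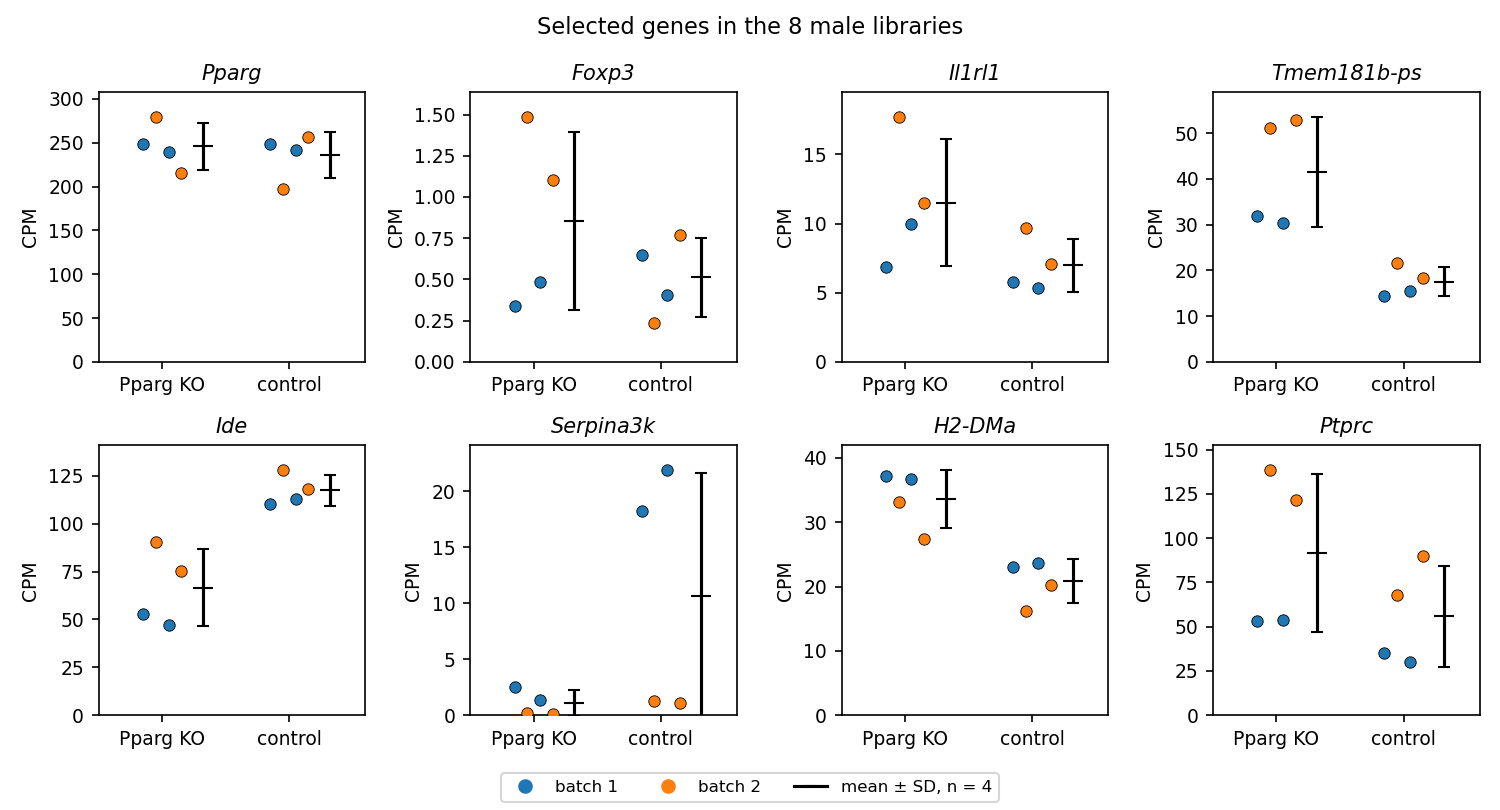
Level in CPM of 8 genes in each male library, Pparg knockout left and control right, coloured by batch, with mean ± SD of 4 libraries (bars are cut at 0). Tmem181b-ps, Ide and H2-DMa separate the groups without overlap, Pparg and Foxp3 do not, and Serpina3k differs more between batches than between groups.

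Gene lists below were read as counts, with no test. Counts of list members with groups without overlap were taken after the mean of each batch was removed. "Higher" or "lower" at an unadjusted p under 0.05 refers to the 3.86% and 2.3% of all genes given above, and 0 members of any list were called.

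MHC class II molecules present peptides from outside the cell to helper T cells, and their genes gave the most even difference of the lists. All 10 list genes were tested and all 10 had a positive log2 fold change, against 55.6% of all genes. The median was 0.66, against 0.02 over all genes. Of the 10, 7 had an unadjusted p under 0.05, and the same 7 had groups that did not overlap after removing batch means, against 3.78% of all genes. Summed over the list, the level was 2176, 2310, 2325 and 1756 CPM in Pparg knockout males, against 1535, 1260, 1491 and 1401 CPM in control males. Every knockout library was above every control library.

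Among the class II members, the peptide-loading chain H2-DMa (chromosome 17, 34119693 to 34139101) had the smallest p. It had 37.2, 33.2, 36.7 and 27.3 CPM in Pparg knockout males, against 23.1, 16.2, 23.6 and 20.3 CPM in control males (log2 fold change 0.70, SE 0.10, edgeR adjusted p = 0.236). The β chain gene H2-Ab1 (chromosome 17, 34263227 to 34269418) had 337, 348, 341 and 248 CPM in Pparg knockout males and 229, 179, 232 and 205 CPM in control males (0.60, SE 0.12, adjusted p = 0.41). Cd74, the invariant chain (chromosome 18, 60803849 to 60812652), had 1043, 995, 1125 and 773 CPM in Pparg knockout males and 752, 610, 710 and 590 CPM in control males (0.56, SE 0.11, adjusted p = 0.41). All 3 genes separated the groups in every library. The chain gene H2-Aa, whose promoter is printed above, averaged 379 ± 53.4 CPM in Pparg knockout males and 247 ± 27.1 CPM in control males (0.62, SE 0.13). H2-Eb1, the other printed promoter, averaged 338 ± 49.1 CPM in Pparg knockout males and 222 ± 24.8 CPM in control males (0.60, SE 0.14). Ciita, the transactivator that class II genes require, had 8.20, 42.7, 7.57 and 42.5 CPM in Pparg knockout males and 4.43, 20.2, 6.40 and 23.7 CPM in control males (0.75, SE 0.15). Ciita followed the batch, and within each batch the knockout libraries were higher. H2-Aa, H2-Eb1 and Ciita were chosen after their values were seen.

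The class II median was stable to the choice of libraries. It was 0.57 to 0.72 when each library was left out in turn and 0.59 in either batch taken by itself. Without the 4 libraries with epithelial transcripts, where knockout replicate 3 alone stands for the knockout, it was 0.65. DESeq2 called H2-DMa, Cd74, H2-Ab1, H2-Aa, Ciita and H2-Eb1 (adjusted p from 6.01e-06 to 0.00732). In Tbet knockout males, which share the male controls, these genes were also positive. Their log2 fold changes there were 0.57 (SE 0.12), 0.33 (SE 0.11), 0.42 (SE 0.10), 0.52 (SE 0.11), 0.52 (SE 0.18) and 0.47 (SE 0.11), in that order (edgeR adjusted p from 0.528 to 0.712). The part of the shared controls was not tested.

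Class I molecules present peptides made inside the cell, after the immunoproteasome cuts them and the TAP pump carries them. All 11 genes of this list had positive log2 fold changes, with a median of 0.24, and 3 had an unadjusted p under 0.05. Tap1, a subunit of the pump, had 72.0, 89.6, 58.2 and 62.8 CPM in Pparg knockout males and 49.1, 35.2, 57.8 and 54.8 CPM in control males (0.52, SE 0.19, edgeR adjusted p = 0.768). Knockout replicate 3 and control replicate 3 were nearly level. The heavy chain H2-K1 had a log2 fold change of 0.24 (SE 0.18) and the light chain B2m of 0.14 (SE 0.22), each with overlapping groups. For the class I list the median was 0.10 without Pparg knockout replicate 2, 0.08 in batch 1 alone, 0.38 in batch 2 alone and 0.08 without the 4 libraries with epithelial transcripts.

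Interferon-induced GTPases guard cells against intracellular pathogens and are strongly induced by interferon gamma, the product of type 1 lymphocytes. All 15 list genes were tested and all 15 had positive log2 fold changes, with a median of 0.74. Of these, 7 had an unadjusted p under 0.05 and 4 had groups without overlap. The summed level was 717, 1970, 631 and 852 CPM in Pparg knockout males and 522, 512, 680 and 664 CPM in control males. Knockout replicate 2 was far above the rest, and knockout replicate 3 was below control replicates 3 and 4.

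Gbp8, of the guanylate-binding protein family, had the smallest p of these genes (5.13, 5.70, 3.19 and 9.01 CPM in Pparg knockout males and 1.75, 3.55, 2.82 and 3.60 CPM in control males, log2 fold change 0.95, SE 0.26, edgeR adjusted p = 0.652). Gbp3 had 54.5, 82.1, 48.2 and 57.9 CPM in Pparg knockout males and 34.1, 31.6, 51.7 and 38.7 CPM in control males (0.63, SE 0.22). Gbp2 had 117, 275, 97.0 and 105 CPM in Pparg knockout males and 94.0, 90.7, 107 and 106 CPM in control males (0.52, SE 0.32). For Gbp2 the difference lay in knockout replicate 2 and the other libraries overlapped. Members of this family are similar in sequence, which makes the split of reads among them uncertain.

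The size of the GTPase difference rested on single libraries. The list median was 0.43 without Pparg knockout replicate 2, 0.49 without control replicate 2 and 0.93 without control replicate 3. It was 0.22 in batch 1 alone, 1.005 in batch 2 alone and 0.13 without the 4 libraries with epithelial transcripts.

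Genes of the type I interferon response, which block viral replication, had smaller values in the same direction. All 21 list genes had positive log2 fold changes, with a median of 0.46 and 3 at an unadjusted p under 0.05, and 0 had groups without overlap. Mx1 encodes a GTPase that restricts influenza virus in other mouse strains, and RefSeq annotates it in the reference strain as a transcribed pseudogene. It had 7.68, 5.91, 4.34 and 6.69 CPM in Pparg knockout males and 2.63, 3.50, 4.34 and 4.01 CPM in control males (0.76, SE 0.25, edgeR adjusted p = 0.73). Ifit1, which binds foreign RNA, had a log2 fold change of 0.64 (SE 0.25) and Isg15, a ubiquitin-like modifier, of 0.69 (SE 0.31). The list median was 0.24 without Pparg knockout replicate 2, 0.13 in batch 1 alone and 0.72 in batch 2 alone. Without the 4 libraries with epithelial transcripts its direction turned (−0.11), but there knockout replicate 3 alone stands for the knockout.

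**Figure D3:**
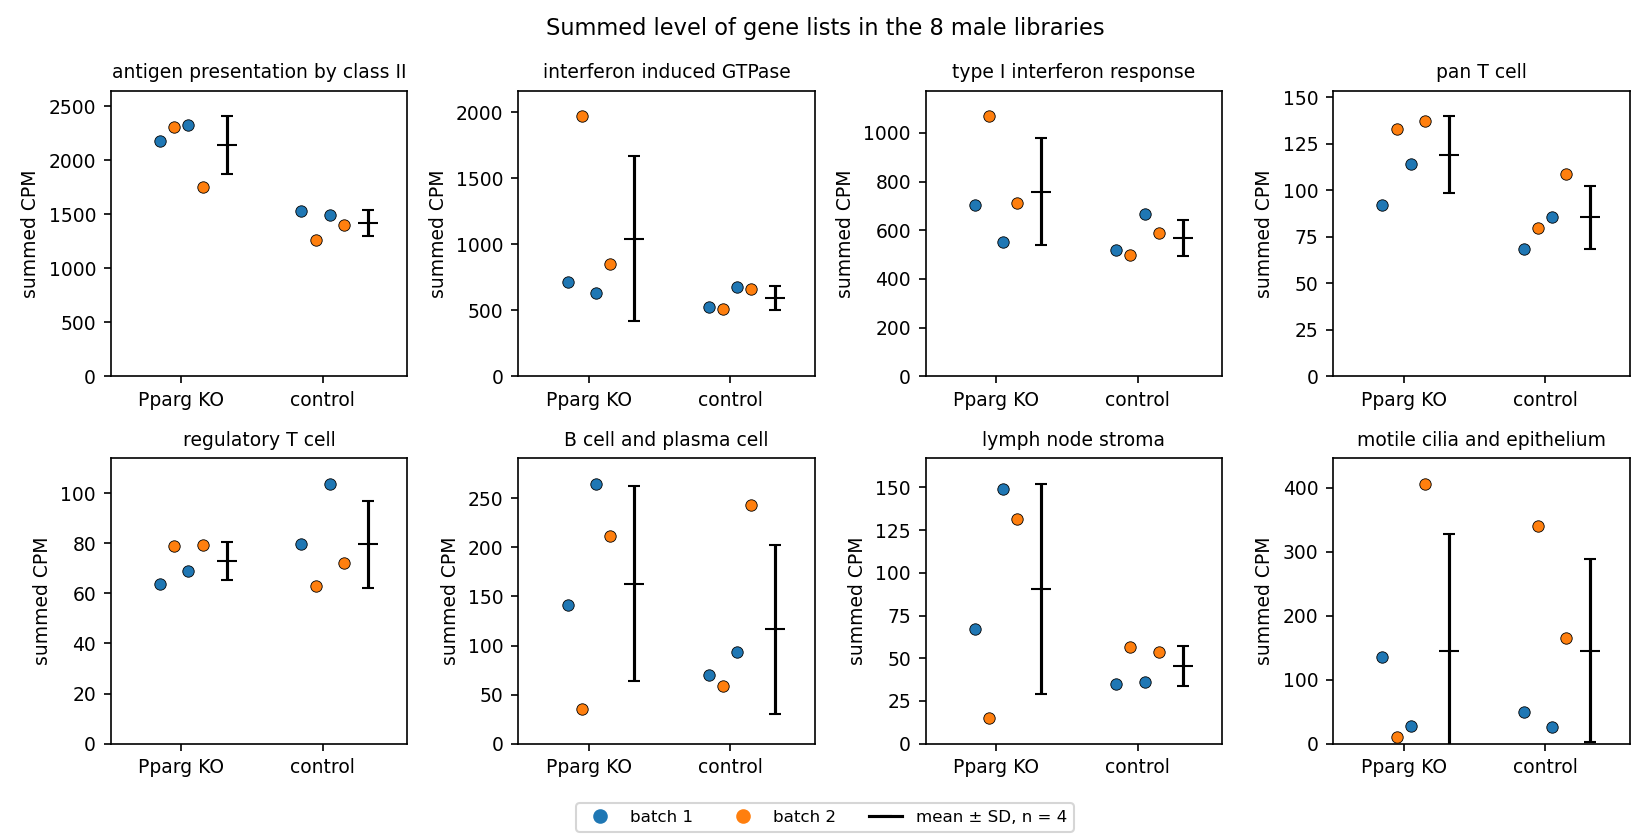
Summed level in CPM of the members of 8 gene lists in each male library, Pparg knockout left and control right, coloured by batch, with mean ± SD of 4 libraries (bars are cut at 0). Class II levels run from 1756 to 2325 CPM in knockout libraries and from 1260 to 1535 CPM in control libraries, while the other 7 lists overlap.

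T cell genes were also higher on balance. Of 16 pan T cell genes tested, 15 had positive log2 fold changes (median 0.66), 5 had an unadjusted p under 0.05 and 4 had groups without overlap. The summed level was 92.0, 133, 114 and 137 CPM in Pparg knockout males and 68.3, 79.9, 85.6 and 109 CPM in control males. The lowest knockout library lay below the highest control library, and within each batch the knockout libraries were higher. Besides Cd2, the CD3 chain genes Cd3e and Cd3d of the T cell receptor complex had log2 fold changes of 0.50 (SE 0.40) and 0.71 (SE 0.40). Cd3e had 2.13, 2.77, 2.82 and 3.43 CPM in Pparg knockout males and 1.57, 0.889, 2.06 and 3.32 CPM in control males, which overlap. The list median was 0.54 without Pparg knockout replicate 2, 0.90 without control replicate 4, and 0.69 without the 4 libraries with epithelial transcripts.

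The summed level of regulatory T cell markers changed direction between batches, while the median of the single genes did not. Of 10 genes tested, 7 had positive log2 fold changes (median 0.44), with 1 at an unadjusted p under 0.05. Their summed level was 63.9, 79.0, 69.1 and 79.3 CPM in Pparg knockout males and 79.7, 62.9, 104 and 72.3 CPM in control males. Both knockout libraries were below both control libraries in batch 1 and above both in batch 2. Il2ra, the IL-2 receptor α chain, is shared with other activated T cells, and had 6.93, 10.6, 8.72 and 10.5 CPM in Pparg knockout males and 4.75, 6.58, 6.04 and 6.40 CPM in control males. Its lowest knockout library was above its highest control library (log2 fold change 0.62, SE 0.14, edgeR adjusted p = 0.536). The median of the single genes was 0.13 without control replicate 2, 0.27 and 0.29 without Pparg knockout replicates 3 and 4, and 0.26 in either batch alone.

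Of 14 genes of the program of tissue regulatory T cells 13 were tested, 10 with a positive log2 fold change (median 0.31), and 3 had both an unadjusted p under 0.05 and a higher level. Il1rl1 (chromosome 1, 40404864 to 40465418), which encodes the IL-33 receptor ST2, had 6.85, 17.7, 9.94 and 11.5 CPM in Pparg knockout males and 5.81, 9.66, 5.37 and 7.04 CPM in control males. The ranges overlap, but within each batch both knockout libraries were higher (0.70, SE 0.20, edgeR adjusted p = 0.681). ST2 is also found on mast cells and innate lymphoid cells. Cxcr6, a chemokine receptor of tissue T cells, had 4.08, 3.97, 2.71 and 4.07 CPM in Pparg knockout males and 1.75, 2.43, 1.84 and 2.02 CPM in control males (0.89, SE 0.22). Klrg1, a receptor of terminally differentiated lymphocytes and of a subset of fat regulatory T cells, had 0.337, 3.02, 0.594 and 2.09 CPM in Pparg knockout males and 1.15, 0.474, 0.985 and 0.162 CPM in control males (0.86, SE 0.98). Its direction differed between batches. Without control replicate 2 the list median was 0.20.

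Genes of type 1 and cytotoxic lymphocytes had a median log2 fold change of 0.69 over 15 of 17 genes tested, 14 of them positive. Of these, 7 had an unadjusted p under 0.05 and 5 had groups without overlap. The summed level was 29.6, 56.3, 35.02 and 45.2 CPM in Pparg knockout males and 26.002, 14.3, 24.2 and 32.8 CPM in control males. Klrk1, the activating receptor NKG2D of natural killer and CD8 T cells, had 4.16, 7.48, 3.75 and 4.48 CPM in Pparg knockout males and 2.49, 2.31, 2.46 and 3.24 CPM in control males. Each knockout library was above each control library for Klrk1 (0.89, SE 0.24, edgeR adjusted p = 0.652). Tbx21 itself, the T-bet gene that directs type 1 responses, had 1.39, 1.61, 1.26 and 1.45 CPM in Pparg knockout males and 1.11, 0.592, 1.12 and 1.70 CPM in control males (0.33, SE 0.35), and its target Cxcr3 had a log2 fold change of 0.33 (SE 0.35). The list median was 0.59 without control replicate 2 and 0.94 without control replicate 4, and 0.61 without the 4 libraries with epithelial transcripts.

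B cell genes differed more among libraries than between groups. Of 13 genes tested, 10 had positive log2 fold changes with a median of 1.07, and 0 had an unadjusted p under 0.05. The summed level was 141, 34.96, 265 and 211 CPM in Pparg knockout males and 70.3, 58.8, 93.0 and 243 CPM in control males. Knockout replicate 2 was the lowest of all 8 and control replicate 4 the second highest. The median was 0.45 without Pparg knockout replicate 4 and 0.68 without Pparg knockout replicate 3. Cd79a, of the B cell receptor complex, had 12.8, 1.61, 37.0 and 22.04 CPM in Pparg knockout males and 5.44, 3.67, 9.31 and 11.8 CPM in control males (1.18, SE 0.84), and Fcer2a, the IgE receptor of mature B cells, had a log2 fold change of 1.39 (SE 0.77).

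Markers of lymph node tissue also varied among libraries. The lymph node stroma list, which shares Fcer2a and Cr2 with the B cell list, had 7 of 9 genes tested, all 7 positive, with a median of 0.95, which was 0.50 without Pparg knockout replicate 4. It summed to 67.1, 15.1, 149 and 131 CPM in Pparg knockout males and to 34.7, 56.6, 35.9 and 53.9 CPM in control males. Knockout replicates 1, 3 and 4 were above every control library and replicate 2 below every one. Ccl21a, a chemokine that guides T cells into lymph nodes, had 15.3, 7.03, 37.6 and 59.6 CPM in Pparg knockout males and 8.16, 36.9, 5.91 and 27.7 CPM in control males (0.95, SE 0.75). Ccl19, of the same function, had a log2 fold change of 0.76 (SE 0.37), and Ltb, the lymphotoxin β chain of lymphocytes, of 1.07 (SE 0.40). Glycam1 and Madcam1, which mark the vessels where lymphocytes enter nodes, were too low to be tested. In Pparg knockout replicate 2, which stood apart on the second principal component, B cell and node levels were the lowest. Its class II sum was 2310 CPM and its pan T cell sum 133 CPM, both above every control library. These values are of 1 library, and the part of node tissue in the lymphocyte and class II values was not tested.

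Macrophage genes gave smaller differences. Of 14 genes tested, 12 had positive log2 fold changes (median 0.25), 4 had an unadjusted p under 0.05 and 1 had groups without overlap. Timd4 had 10.4, 7.07, 15.9 and 6.22 CPM in Pparg knockout males and 5.58, 3.50, 3.31 and 4.05 CPM in control males, each knockout library above each control library (1.19, SE 0.26, edgeR adjusted p = 0.472). The pan-macrophage gene Adgre1, which encodes F4/80, had 61.1, 91.2, 73.6 and 60.0 CPM in Pparg knockout males and 65.0, 52.5, 49.9 and 50.001 CPM in control males (0.40, SE 0.16), and the lysosomal marker Cd68 had a log2 fold change of 0.28 (SE 0.29). The macrophage median was 0.10 without Pparg knockout replicate 2, 0.14 without control replicate 4, −0.03 in batch 1 alone, 0.49 in batch 2 alone and 0.00 without the 4 libraries with epithelial transcripts, so its direction was not stable.

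Lipid-associated macrophages surround dying adipocytes. Their list had a median log2 fold change of 0.26 over 13 genes, 10 positive and 1 at an unadjusted p under 0.05. The summed level, which rests on the most abundant members, ran the other way in all but 1 knockout library, with 10007, 17899, 9984 and 10217 CPM in Pparg knockout males and 12771, 14946, 13251 and 17807 CPM in control males. Knockout replicates 1, 3 and 4 were below every control library and replicate 2 above every one. This list shares the gene Lpl with the list of PPARγ target genes of adipocytes below, so its sum is not specific to these macrophages. Trem2, the lipid receptor that defines these cells, had 46.3, 32.1, 18.9 and 14.9 CPM in Pparg knockout males and 32.6, 13.98, 25.7 and 7.98 CPM in control males (0.63, SE 0.41). Gpnmb, a glycoprotein of lipid-laden cells, had 72.4, 202, 46.1 and 47.5 CPM in Pparg knockout males and 50.4, 55.6, 48.4 and 43.0 CPM in control males (0.80, SE 0.48). Ctss, the protease that trims the invariant chain, had 185, 279, 109 and 130 CPM in Pparg knockout males and 120, 88.8, 89.5 and 97.7 CPM in control males (0.81, SE 0.30). Knockout replicate 2 was the highest library for Gpnmb and Ctss. The median was 0.15, 0.14 and 0.70 without Pparg knockout replicates 1, 2 and 3 and 0.12 without control replicate 4. Without the 4 libraries with epithelial transcripts it was −0.70, while batch 1 taken by itself gave −0.18 and batch 2 gave 0.75.

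Dendritic cells, the main class II presenting cells, had a median of 0.22 over 10 genes, 8 positive and 2 at an unadjusted p under 0.05. Flt3, the receptor for their growth factor, had 3.11, 2.93, 1.52 and 4.30 CPM in Pparg knockout males and 1.52, 2.07, 1.25 and 1.74 CPM in control males (0.83, SE 0.30), and Xcr1, of cross-presenting dendritic cells, had a log2 fold change of 0.20 (SE 0.39). The median was 0.03 without Pparg knockout replicate 2 and 0.11 without control replicate 4.

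Of 19 inflammatory cytokine and chemokine genes 17 were tested, with a median log2 fold change of 0.31, 15 positive and 0 at an unadjusted p under 0.05. Tnf had 4.16, 3.68, 1.11 and 2.44 CPM in Pparg knockout males and 1.34, 1.84, 3.36 and 1.94 CPM in control males (0.43, SE 0.47). Il1b, the interleukin 1β gene, was near 1 CPM in both groups (0.19, SE 0.56). Cxcl10, a chemokine induced by interferon gamma, had 6.52, 18.8, 5.86 and 6.22 CPM in Pparg knockout males and 6.09, 3.97, 6.22 and 5.87 CPM in control males (0.68, SE 0.42), so its difference lay in knockout replicate 2. For these cytokine genes the median was 0.06, 0.08 and 0.50 without Pparg knockout replicates 1, 2 and 3, 0.14 without control replicate 2 and −0.43 without the 4 libraries with epithelial transcripts.

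The IL-33 axis and type 2 immunity, which sustain fat regulatory T cells, had a median of 0.12 over 11 of 17 genes tested, 8 positive. Il33 had 11.3, 9.13, 16.8 and 13.4 CPM in Pparg knockout males and 10.6, 13.7, 12.4 and 9.60 CPM in control males, with overlap (0.12, SE 0.20). Retnla, a product of alternatively activated macrophages, had 304, 307, 506 and 191 CPM in Pparg knockout males and 347, 151, 284 and 91.2 CPM in control males (0.70, SE 0.28). The type 2 cytokine genes Il5, Il13 and Il4 had too few counts to be tested. This list's median was 0.18, 0.20 and 0.21 without Pparg knockout replicates 1, 2 and 4, 0.36 without control replicate 2 and −0.16 without the 4 libraries with epithelial transcripts.

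Of 15 neutrophil and mast cell genes 10 were tested, 8 with positive log2 fold changes (median 0.25). The median ran from 0.12 without control replicate 3 to 0.42 without control replicate 2, left its value by over 1.5 times for every library but control replicate 4, and was −0.10 in batch 2 alone. The 2 negative members were the neutrophil genes S100a8 and S100a9, while Csf3r, another neutrophil gene of the list, was among the 8 positive. S100a8, a subunit of calprotectin, had 5.54, 3.72, 5.42 and 1.40 CPM in Pparg knockout males and 16.6, 3.55, 11.1 and 5.79 CPM in control males (−1.11, SE 0.33), and S100a9, its partner, had 0.974, 0.537, 0 and 0.989 CPM in Pparg knockout males and 3.87, 0.474, 2.78 and 0.972 CPM in control males (−1.39, SE 1.11).

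Most adipocyte genes had negative log2 fold changes, none of which passed an unadjusted p of 0.05. Of 18 mature adipocyte genes 15 had negative log2 fold changes, against 44.4% of all genes, with a median of −0.19, 0 were lower and 1 higher at an unadjusted p under 0.05. Their summed level was 47379, 42942, 52620 and 30072 CPM in Pparg knockout males and 59564, 30128, 66532 and 43444 CPM in control males, which overlap. The member with the smallest p ran against this: Adrb3, the β3 adrenergic receptor of adipocytes, had 484, 614, 527 and 480 CPM in Pparg knockout males and 327, 354, 451 and 331 CPM in control males, without overlap (0.53, SE 0.14, edgeR adjusted p = 0.652). Lep, the satiety hormone leptin, had 3043, 3891, 3774 and 2608 CPM in Pparg knockout males and 5412, 3574, 4600 and 3772 CPM in control males (−0.37, SE 0.19). The direction of the adipocyte median held when each library was left out (from −0.29 without Pparg knockout replicate 2 to −0.11 without control replicate 4) and in each batch (−0.29 in batch 1, −0.05 in batch 2).

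Of 16 PPARγ target genes of adipocytes 15 were tested, 10 of them negative, with a median of −0.28 and 0 at an unadjusted p under 0.05 in either direction. This list shares 5 genes with the adipocyte list and holds RNA levels of the whole tissue. Neither PPARγ activity in adipocytes nor that in regulatory T cells was measured. Cidec, which enlarges lipid droplets, had 3190, 3467, 4075 and 2048 CPM in Pparg knockout males and 5686, 2331, 7014 and 3681 CPM in control males (−0.47, SE 0.26). Pck1, the glycerol-making enzyme PEPCK, had a log2 fold change of 0.23 (SE 0.18), and Gpd1, glycerol-3-phosphate dehydrogenase, of −0.52 (SE 0.41). The median was −0.13, −0.49, −0.18 and −0.16 without Pparg knockout replicates 1, 2, 3 and 4, −0.16 and −0.14 without control replicates 3 and 4, and 0.01 in batch 2 alone.

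Genes of fatty acid synthesis showed no common direction, with 11 of 20 positive and a median of 0.07. The median was below 0 without Pparg knockout replicate 2 (−0.09) or 3 (−0.07) or control replicate 1 (−0.11), and highest without control replicate 4 (0.21). Fasn, fatty acid synthase, had 652, 6930, 1064 and 2890 CPM in Pparg knockout males and 431, 4610, 647 and 5950 CPM in control males. Batch 2 libraries were several times above batch 1 libraries in both groups (0.28, SE 0.34). Acaca, which supplies malonyl-CoA for synthesis, had a log2 fold change of 0.18 (SE 0.18). Acacb, whose malonyl-CoA restrains fatty acid oxidation, had 77.5, 122, 125 and 107 CPM in Pparg knockout males and 169, 119, 291 and 158 CPM in control males (−0.73, SE 0.28).

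Thermogenic genes had a median of −0.37 over 12 of 14 genes tested, 7 negative and 2 at an unadjusted p under 0.05, both lower. Cpt1b, the muscle-type carnitine palmitoyltransferase of brown fat, had 0.374, 0.826, 0.371 and 0.989 CPM in Pparg knockout males and 0.830, 1.66, 0.672 and 1.82 CPM in control males (−0.97, SE 0.27). Within each batch both knockout libraries were lower. Cidea, a lipid droplet protein of brown fat, had 2.32, 16.8, 1.04 and 4.71 CPM in Pparg knockout males and 1.29, 4.74, 5.15 and 24.9 CPM in control males (−0.69, SE 0.71). Ucp1, the uncoupling protein that defines brown fat, was too low to be tested. The median was −0.61 and −0.23 without Pparg knockout replicates 2 and 4, and −0.14, −0.22 and −0.20 without control replicates 1, 3 and 4.

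Matrix genes had a median of −0.09, with 16 of 23 negative and 3 lower and 1 higher at an unadjusted p under 0.05. Lox had 131, 80.1, 96.3 and 83.3 CPM in Pparg knockout males and 362, 125, 204 and 135 CPM in control males (−0.99, SE 0.22, edgeR adjusted p = 0.512). Control replicate 1 was far above the rest, and within each batch both knockout libraries were lower. The fibrillar collagen genes Col1a1 (−0.33, SE 0.24) and Col3a1 (−0.09, SE 0.18) had overlapping groups. The median was −0.15, −0.27 and 0.01 without Pparg knockout replicates 1, 2 and 3, 0.07, −0.15 and −0.24 without control replicates 1, 2 and 4, −0.52 in batch 1 alone and 0.19 in batch 2 alone.

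Progenitor genes of the fat stroma had a median of 0.08 over 16 genes, 10 positive, and it ran from 0.01 without Pparg knockout replicate 2 to 0.12 without Pparg knockout replicate 1. Pi16, of an early progenitor population, had 26.9, 82.5, 50.9 and 75.6 CPM in Pparg knockout males and 20.6, 43.6, 25.0 and 42.1 CPM in control males (0.83, SE 0.19, edgeR adjusted p = 0.512). Within each batch both knockout libraries were higher. Dpp4, which marks the same population, had a log2 fold change of 0.35 (SE 0.25), and Pdgfra, of progenitors in general, of 0.11 (SE 0.10).

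Immediate early genes respond within minutes to stimulation and to tissue handling. Of 18 list genes 17 were tested, 16 with positive log2 fold changes (median 0.22) and 3 at an unadjusted p under 0.05. Their sum was 759, 831, 696 and 640 CPM in Pparg knockout males and 618, 609, 629 and 570 CPM in control males, without overlap. Fos had 45.5, 37.3, 14.5 and 18.1 CPM in Pparg knockout males and 21.02, 8.29, 22.6 and 5.63 CPM in control males (1.21, SE 0.51), Jun had a log2 fold change of 0.31 (SE 0.11), and Zfp36, which degrades cytokine mRNA, of 0.26 (SE 0.08). The median was −0.10 without the 4 libraries with epithelial transcripts. Its part in the immune differences was not tested.

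**Figure D4:**
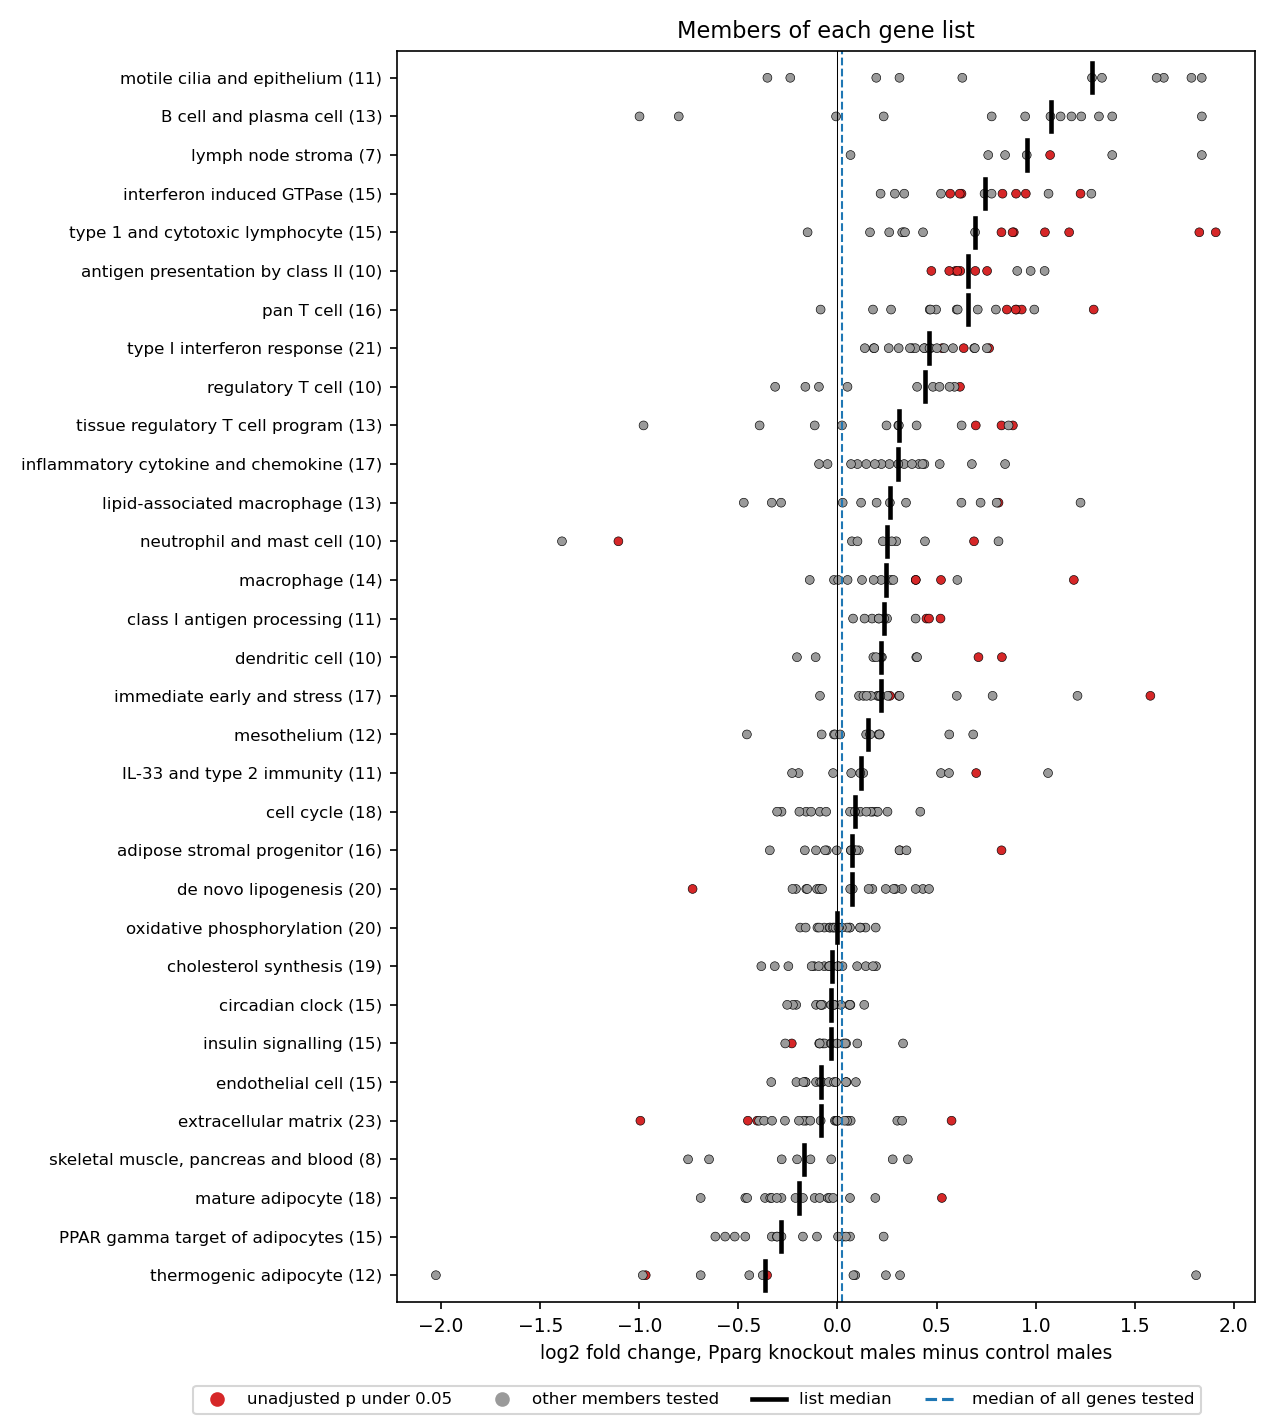
Log2 fold change (Pparg knockout males minus control males) of each tested member of the gene lists with more than 1 tested member, with the number tested in parentheses, red at an unadjusted p under 0.05; black bars are list medians and the dashed line is the median of all genes tested, 0.02. Medians of class II, interferon and T cell lists lie right of the dashed line, and those of adipocyte and thermogenic lists left of it. Single members of several of these lists lie on the other side.

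Females of the same genotypes gave a second set of libraries, 4 Pparg knockout and 4 control. Of 995 genes at an unadjusted p under 0.05 in males and tested in both sexes, 629 (63.2%) had the same sign in females, against 49.4% of 15698 genes. The share was 72.1% for the 630 genes that were higher in Pparg knockout males and 47.9% for the 365 that were lower. In the female libraries alone edgeR called 0 of 16394 genes, with 1536 (9.37%) at an unadjusted p under 0.05 and 48.5% of log2 fold changes above 0. No difference between the sexes was called in edgeR among 17369 genes, with 805 (4.63%) at an unadjusted p under 0.05. DESeq2 called 76, and those with the smallest p included genes of motile cilia, such as Armc4, Rsph14, Spag16 and Tekt4. Epithelial transcripts varied among libraries of each male group, and their part in these 76 was not tested.

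The immune lists lay on the same side in both sexes. All 10 class II genes were positive in both, with a female median of 0.81, and so were all 15 GTPase genes (female median 0.46). H2-DMa had a log2 fold change of 0.88 (SE 0.18) in females, and its effect in males minus that in females was −0.22 (SE 0.23, edgeR adjusted p = 0.939). Type I interferon genes had a female median of 0.13, with 18 of 21 positive in both sexes. Type 1 lymphocyte genes had a female median of 0.73, pan T cell genes 0.74, macrophage genes 0.70 and B cell genes 0.83.

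Of the fat cell lists, 3 lay on opposite sides and the thermogenic list on the same side (medians −0.37 in males and −0.24 in females). Mature adipocyte genes had a median of −0.19 in males and 0.31 in females, and 2 of 18 genes were positive and 2 negative in both sexes. PPARγ target genes had medians of −0.28 in males and 0.40 in females, and fatty acid synthesis genes 0.07 in males and −0.47 in females. Opposite sides were not particular to fat cell lists. Medians in males and in females were −0.08 and 0.38 for endothelial genes and −0.09 and 0.22 for matrix genes. They were −0.17 and 0.28 for muscle, pancreas and blood genes and 1.28 and −1.81 for ciliated and ductal epithelium genes. Lep had a log2 fold change of −0.37 in males and 1.46 (SE 0.35) in females, and the effect in males minus that in females was −1.87 (SE 0.57, edgeR adjusted p = 0.906), so the difference was not called. Of the genes with large negative values in males, Plppr4 had 0.79 (SE 0.38) and Lipf 2.47 (SE 1.25) in females, with differences (males minus females) of −2.20 (SE 0.58) and −4.42 (SE 1.32), each at an edgeR adjusted p of 0.906.

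**Figure D5:**
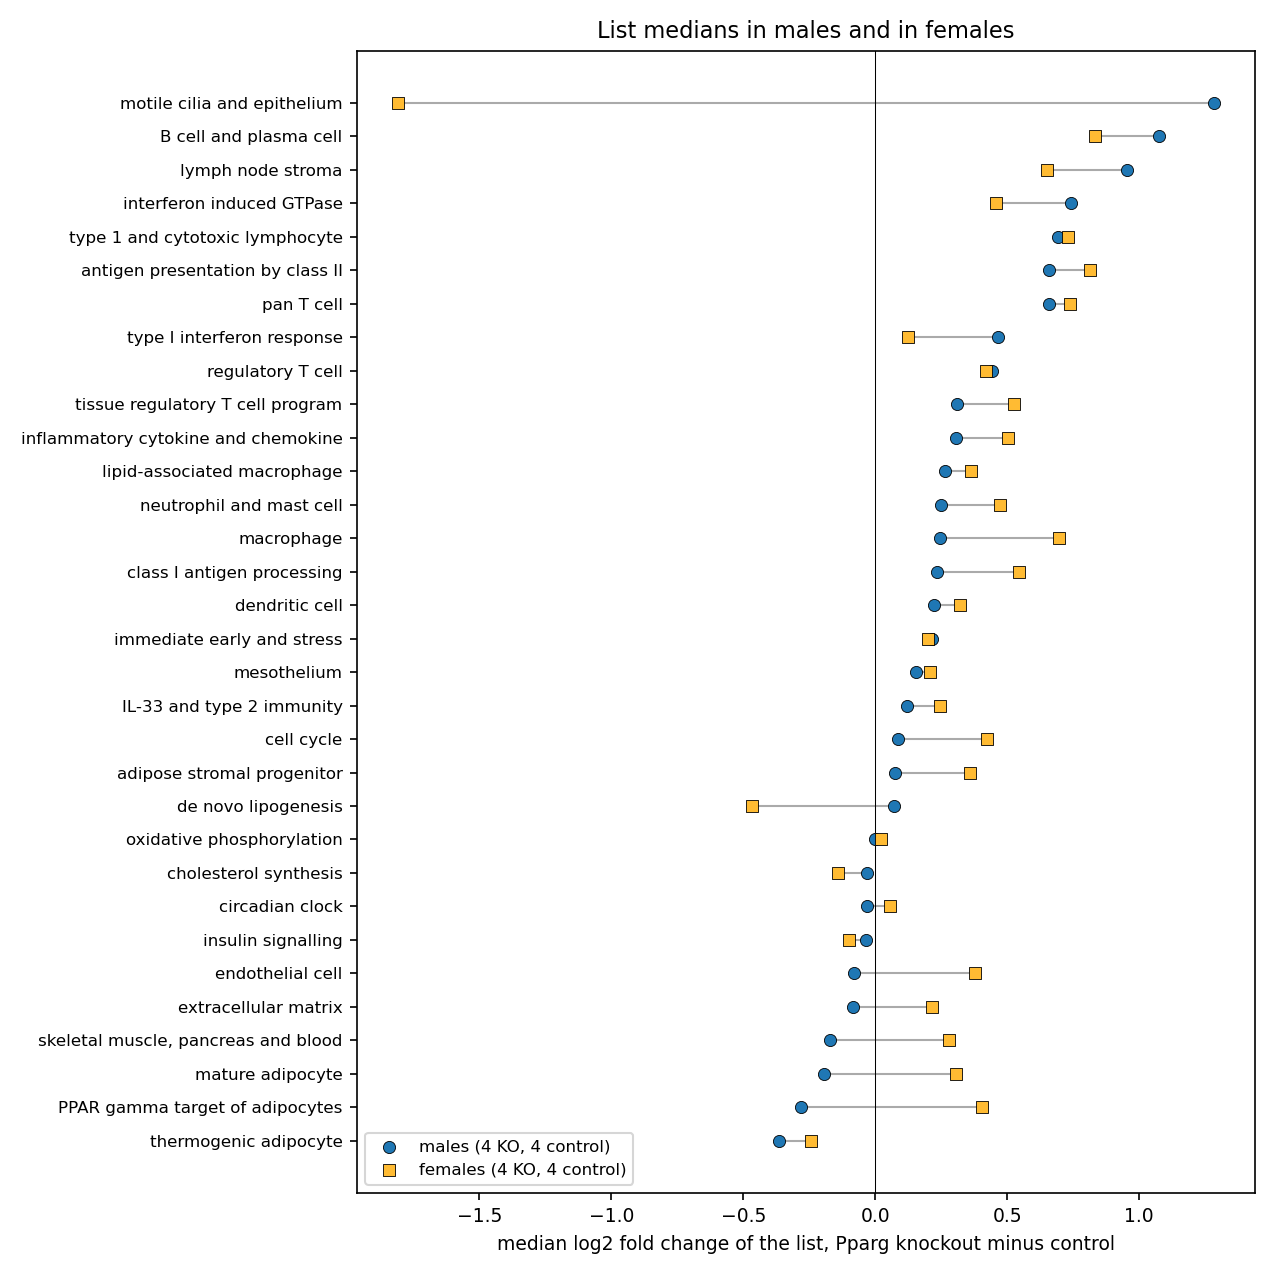
Median log2 fold change of each list (Pparg knockout minus control) in males (circles) and in females (squares), 4 knockout and 4 control libraries in each sex. Class II, T cell and GTPase lists lie right of 0 in both sexes. Adipocyte, PPARγ target and fatty acid synthesis lists lie on opposite sides of 0, as do endothelial, matrix and ciliated epithelium lists.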

How the data were processed

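RNA of the whole fat pad was isolated with the RNeasy Lipid Tissue kit and sequenced from TruSeq RNA libraries, per the labels' protocols. Raw counts per gene are deposited as 1 table of 27179 genes, made by the authors with featureCounts on GRCm38 or mm10, per the submitters' processing notes, which also name limma. Aligner, annotation, strand setting and tool versions were not given in the sources used here. The authors also deposited log2 FPKM values of 15764 genes per library, which were used in 1 alternative. Their values look quantile normalized between libraries, which no source states. Genes without a symbol (1029) held 0.402% of the counts of the 8 libraries and were tested but not named.

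The 8 male libraries were fitted in R 4.3.3 with edgeR 4.0.16: filterByExpr by group, TMM, the robust quasi-likelihood test with 2 groups and batch as covariate, and a common biological coefficient of variation of 0.321. Library totals were 15473451 to 27192326 counts, from reads without molecular identifiers. Correlation of log2 CPM between libraries was 0.873 to 0.98, and none was a copy of another. The 16 Pparg knockout and control libraries of both sexes were fitted together for the male minus female difference. Alternatives were DESeq2 1.42.0, its size factors in edgeR, limma 3.58.1 (voom, and log2 FPKM), no filter, no batch term, a replicate block, all 24 libraries, the 12 males, 1 batch, and each library left out. Leaving out 4 libraries with epithelial transcripts (list sum above 100 CPM) was added after seeing the data. With the batch term, that setting compares knockout replicate 3 alone with control replicates 1 and 3. The scripts were tested on simulated data.

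The comparison and the 33 gene lists (499 genes, 496 in the table, 449 tested) were chosen with earlier results of these data known, so lists get counts and medians without a test. The rule for named genes took Pparg, Foxp3, Tbx21, Il1rl1 and Ide; called genes; the 10 largest values in each direction among genes with unadjusted p under 0.01, a minimum mean log2 CPM of 1 and no overlap after removing batch means; and per list the first 2 members and that with the smallest p. Among called genes and the largest values, pseudogenes, predicted genes and clones were counted and not named, except the called one. The named members of the lists given as counts in the last section are not printed. Of the genes the rule took, 2 are not reported here. Positions are from a RefSeq table of GRCm38 (15938 of the tested genes matched).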

Additional observations from a re-analysis of the deposited data

Results flagged for a closer look

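In 244 scans of a group of 4 libraries (97 genes and 25 list sums, each group alone), 16 had 1 library far outside the range of the other 3 by Dixon's test, which flags about 1 in 20 groups by chance. Of these, 7 were highs of Pparg knockout male replicate 2. It had 202 CPM of Gpnmb (the others 46.1 to 72.4), 18.8 CPM of Cxcl10 (5.86 to 6.52), 275 CPM of Gbp2 (97.0 to 117) and 1847 CPM of Gpd1 (623 to 725). Its list sums were 1664 CPM for macrophage genes (1325 to 1369), 17899 CPM for lipid-associated macrophage genes (9984 to 10217) and 1970 CPM for interferon-induced GTPases (631 to 852). The cause was not tested.

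In the other Pparg knockout males, replicate 4 was low for H2-Ab1 (248 CPM, the others 337 to 348), and replicate 3 was low for Cxcr6 (2.71 CPM, the others 3.97 to 4.08) and Il1b (0.297 CPM, the others 1.27 to 1.45). In control males, replicate 2 was low for H2-Aa (207 CPM, the others 255 to 264) and Cxcl10 (3.97 CPM, the others 5.87 to 6.22) and high for Dpp4 (60.2 CPM, the others 31.4 to 32.7). Control replicate 4 was high for Cd2 (6.19 CPM, the others 2.54 to 3.13) and Cidea (24.9 CPM, the others 1.29 to 5.15), and control replicate 3 for the epididymis and male reproductive tract list (36.8 CPM, the others 8.58 to 13.1).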

How the results depend on the processing

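The count of called genes, 1 in the comparison as reported, was 2 with DESeq2's size factors in edgeR, 2 with no filter, 4 with voom (1 higher, 3 lower) and 99 with DESeq2 (57 higher, 42 lower). It was 0 with all 24 libraries, with the 12 males, without the batch term, in batch 1 alone, in batch 2 alone, on log2 FPKM, without the 4 libraries with epithelial transcripts and, from 0 to 0, when each library was left out. With a replicate block replacing the batch term it was 0. Deviations of same-numbered libraries from their group mean, which still hold batch, correlated at 0.082, −0.186, 0.526 and 0.699. With the batch mean also removed the correlations were −0.129, −0.352, −0.129 and −0.352. With 2 libraries per group and batch these deviations mirror each other, so they cannot decide whether the numbers pair libraries. For the male minus female difference, 0 as reported, DESeq2 called 76, batch 1 alone 1 and every other alternative 0, the replicate block included.

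Among 97 named genes, 1841 of 1938 values under an alternative kept their direction and side of the threshold, and 48 turned direction. Without the 4 libraries with epithelial transcripts, where knockout replicate 3 alone stands for the knockout, these were Adipoq −0.09, B2m −0.13, Cd68 −0.678, Cxcl10 −0.06, Fos −0.582, Foxp3 −0.109, Gbp2 −0.041, Gpnmb −0.089, Il1b −1.989, Isg15 −0.409, Klrg1 −0.833, Pdgfra −0.062, Pparg −0.025, Tnf −1.061, Trem2 −0.616 and Xcr1 −0.783. In batch 1 alone they were Adipoq −0.171, B2m −0.134, Cd68 −0.138, Foxp3 −0.346, Il1b −0.606, Klrg1 −1.186, Pdgfra −0.05, Pparg −0.003 and Xcr1 −0.551. In batch 2 alone they were Col3a1 0.187, Fasn −0.154, Il33 −0.081 and S100a9 0.022. With voom they were Adipoq −0.072, B2m −0.044, Il1b −0.209 and Xcr1 −0.121, with all 24 libraries Il1b −0.002, and without the batch term Fasn −0.012. When each library was left out, values ranged from −0.134 to 0.15 for Adipoq, −0.117 to 0.242 for B2m, −0.188 to 0.046 for Col3a1, −0.143 to 0.621 for Il1b, −0.061 to 0.263 for Il33, −0.006 to 1.686 for Klrg1, −0.035 to 0.125 for Pparg and −0.075 to 0.43 for Xcr1. The cause was not tested. Foxp3, at 0.237 to 1.49 CPM, was too low for a difference to be detectable at this depth.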

Other observations

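Other gene groups lay near the median of all genes. The median log2 fold change was −0.03 for cholesterol synthesis (7 of 19 tested genes positive), −0.03 for insulin signalling (5 of 15), 0.00 for oxidative phosphorylation (10 of 20), −0.03 for clock genes (5 of 15), 0.09 for cell cycle genes (11 of 18), −0.08 for endothelial genes (3 of 15), 0.15 for mesothelial genes (8 of 12) and −0.17 for muscle, pancreas and blood genes (2 of 8). In these lists together 1 gene, of the insulin list, had an unadjusted p under 0.05, and it was lower. When each library was left out, the medians of these lists ran from −0.38 for muscle, pancreas and blood genes to 0.30 for mesothelial genes. Epididymis genes summed to 15.5, 1.16, 9.05 and 43.7 CPM in Pparg knockout males and to 8.62, 13.1, 36.8 and 8.58 CPM in control males, and 1 of these 20 genes was tested.

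Chromosome 19, which carries Ide, held 9 of the 240 genes at an unadjusted p under 0.01, and all 9 were lower in Pparg knockout males, against 78 lower and 162 higher over all chromosomes. Its share at that p, 1.6% of 561 genes tested, was near the 1.46% of all genes. Fgfbp3 (36917550 to 36919599) and Ide (37268743 to 37334544) lie close together. Fgfbp3 had 3.33, 1.98, 3.49 and 3.20 CPM in Pparg knockout males and 7.75, 5.39, 7.07 and 5.30 CPM in control males, with a log2 fold change of −1.08 in males, −0.87 in females and −1.17 in Tbet knockout males, whose controls are shared. Between them lie Btaf1 (36926079 to 37014057), with a log2 fold change of −0.34 (SE 0.09), and the noncoding 4931408D14Rik (37258423 to 37264095), both named after their values were seen. 4931408D14Rik had 21.04, 23.7, 22.998 and 13.6 CPM in Pparg knockout males and 74.5, 24.5, 72.7 and 30.3 CPM in control males (−1.16, SE 0.29), with −0.58 in females and −1.18 in Tbet knockout males. Lipf (33961248 to 33976813) lies on one side of this pair. On its other side lie Crtac1 (42283035 to 42432966), a cartilage acidic protein, and Gsto1 (47854973 to 47864790), a glutathione transferase, both named after their values were seen. Gsto1 had 78.9, 37.6, 70.8 and 34.95 CPM in Pparg knockout males and 124, 51.1, 113 and 64.4 CPM in control males (−0.67, SE 0.09), lower within each batch. Crtac1 averaged 54.6 ± 16.2 CPM in Pparg knockout males and 81.7 ± 19.9 CPM in control males (−0.59, SE 0.10), while in females its log2 fold change was 2.91 (SE 0.64).

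Apoc1, an apolipoprotein gene of macrophages and liver, named after its values were seen, had 68.8, 43.4, 77.01 and 36.9 CPM in Pparg knockout males and 164, 57.0, 137 and 68.2 CPM in control males (−0.84, SE 0.12, edgeR adjusted p = 0.236). Within each batch both knockout libraries were lower. DESeq2 called it (adjusted p = 1.83e-06), and its log2 fold change in females was −0.08 (SE 0.36).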
